A study of Mus musculus with 39 samples.

Results

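The 6 genes described here belong to the handling of zinc and related metals in the liver: the metallothioneins Mt1 and Mt2, their regulator Mtf1, the importer Slc39a14 and the exporters Slc30a1 and Slc30a10. They were chosen by name, but with earlier results of these data known. All 6 were found among the 55416 identifiers of the count table, and all 6 were among the 15296 genes with enough counts to be tested. RNA was sequenced from whole snap-frozen liver of 39 male mice on the C57BL/6NTac background, with 1 library per mouse. Mice homozygous for the CD163tm1(KOMP)Vlcg allele, called knockout below, were set against wildtype littermates from crosses of heterozygotes. CD163 is the macrophage receptor for haptoglobin bound to haemoglobin. From 6 weeks of age and for 8 weeks, the mice had either chow with normal water (5 wildtype, 4 knockout) or a Western diet plus fructose water (15 of each genotype). All groups shared the strain, the sex and the age, and the knockout was not confined to a cell type. Each p-value measures the spread between single mice.

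Metallothioneins are small proteins whose many cysteines hold zinc and copper, and hepatocytes make large amounts of them when zinc, glucocorticoids or the cytokines of an acute phase response reach the liver. Zinc binding lets the zinc finger protein MTF1 attach to metal response elements, short promoter sequences before the metallothionein genes and Slc30a1. ZIP proteins (Slc39 genes) bring zinc into the cytosol and ZnT proteins (Slc30 genes) move it out of the cytosol. Slc39a14 (ZIP14) takes up zinc, iron and manganese in hepatocytes and is itself an acute phase gene, Slc30a1 (ZnT1) is the zinc exporter of the cell surface, and Slc30a10 (ZnT10) exports manganese.

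The coding sequences of Mt1 and Mt2 are shown because the cysteine codons, in capitals, carry the metal binding. Their likeness also bears on whether a read can fit both genes. Both come from GENCODE release M21 (GRCm38) and run from the start codon to the stop codon.
Mt1: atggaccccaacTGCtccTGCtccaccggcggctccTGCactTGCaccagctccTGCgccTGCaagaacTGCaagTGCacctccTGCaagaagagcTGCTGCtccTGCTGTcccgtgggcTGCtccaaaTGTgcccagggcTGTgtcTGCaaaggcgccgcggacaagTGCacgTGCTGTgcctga
Mt2: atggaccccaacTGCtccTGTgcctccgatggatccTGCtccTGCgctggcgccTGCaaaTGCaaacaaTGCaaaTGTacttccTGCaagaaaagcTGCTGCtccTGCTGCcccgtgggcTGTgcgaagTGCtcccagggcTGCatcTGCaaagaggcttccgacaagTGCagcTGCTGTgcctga
Each holds 61 codons before the stop, 20 of them for cysteine, and all 20 cysteine codons stand at the same place in both. Of 186 bases, 148 (79.6%) were identical, and the longest identical run was 20 bases. A stretch longer than this run cannot match both coding sequences exactly at the same place. The untranslated parts were not compared. How the authors counted reads that fit both genes is not given in the sources used here, so the split between Mt1 and Mt2 is less certain than their sum. In the RefSeq gene order, Mt2 and Mt1 are next to each other, with Mt4 and Mt3 on 1 side and Nup93 on the other.

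The promoter stretches below hold the metal response element core that MTF1 recognises, searched as TGCACNC or TGCGCNC on both strands of the 250 bases before each RefSeq gene start (GRCm38.p6, + strand). Capitals mark each core match and, in Mt1, a pair of glucocorticoid receptor half-sites. The Mt1 stretch is chr8:94178985-94179082, the Mt2 stretch is chr8:94172385-94172584 and the Slc30a1 stretch is chr1:191906728-191906754.
Mt1: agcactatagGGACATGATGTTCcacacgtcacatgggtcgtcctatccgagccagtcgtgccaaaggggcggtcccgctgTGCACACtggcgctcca
Mt2: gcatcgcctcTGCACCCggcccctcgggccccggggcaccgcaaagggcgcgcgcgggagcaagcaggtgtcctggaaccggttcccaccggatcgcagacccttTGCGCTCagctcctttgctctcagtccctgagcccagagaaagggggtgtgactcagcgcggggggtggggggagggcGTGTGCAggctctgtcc
Slc30a1: cgggggttccGAGTGCAaagcaaagtt
The Mt1 window held 1 core match, 23 to 17 bases before the start, and the glucocorticoid pair 94 to 82 bases before it. The Mt2 window held 3 core matches, at 223, 128 and 50 bases before the start. The Slc30a1 window held 1, at 43 bases before the start, and the Slc30a10 window held 3, of which 2 overlap. Further matches lay inside the annotated transcripts. The first 150 bases of the GENCODE transcripts Mt1-201 and Mt2-201 held 4 and 3. Of 58695 protein-coding transcripts, 0.0545% held at least 4 and 0.388% at least 3. Where transcription starts in these livers was not measured, so the annotated start need not be the end of the promoter. The Mtf1 window held 0, and Slc39a14 had no entry in the promoter table. Among 32851 windows of the same length, 21.4% held at least 1 core match, 1.26% held at least 3 and 0.387% held the glucocorticoid pair. The antioxidant element core TGACNNNGC, not in capitals above, was matched in Mt2 at 79 to 71 and in Slc30a1 at 82 to 74 bases before the start. It was held by 10.2% of windows. The STAT-type site TTCNNNGAA, held by 7.02% of windows, was not matched in the windows of these genes. These are matches of letters and no measure of binding.

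Library totals lay between 8578865 and 30438808 counts (median 14573193). Cd163 checked the genotype labels: its mean was 8.74 CPM (counts scaled to the library total) in wildtype chow, 0.601 in knockout chow, 8.31 in wildtype Western diet and 0.354 in knockout Western diet livers. Wildtype chow A, knockout chow D, wildtype Western diet A and knockout Western diet M stood with the livers of the other diet. This was read from diet genes, scaled so that 0 is the average of chow and 1 that of Western diet livers. The 2 chow libraries lay at 0.912 to 0.992, against -0.0595 to 0.102 in the other 7, and the 2 Western diet libraries at 0.158 to 0.212, against 0.819 to 1.25 in the other 28. They were kept under their labels, and values without these 4 are given beside the results they touch. Because the 4 were picked by their diet genes, diet tests without them lean toward a difference and are no separate support. Among wildtype Western diet livers, L and M formed the closest of 741 pairs: their counts differed by a mean chi-square per gene of 3.97, still above sampling noise, and those of the next pair by 10.4. Hepatocyte markers were high in every liver (mean log2 CPM of 7 tested genes 11.6 to 12.4), and the exocrine pancreas markers summed to at most 2.60 CPM.

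Mt1 ranged from 1.42 to 304.7 CPM over the 39 livers. In wildtype Western diet livers, Mt1 had a low of 2.69, a median of 11 and a high of 304.7 CPM. In knockout Western diet livers, it had a low of 1.42, a median of 7.10 and a high of 91.3 CPM. The medians were close, and the means of 68.7 ± 92.2 (SD, n = 15) and 13.8 ± 22.1 CPM (SD, n = 15) were pulled apart by a few wildtype livers: G held 304.7, M 161.6, N 157.0, L 153.5 and F 140.9 CPM. Next came wildtype O with 43.5 CPM, and the other 9 wildtype livers lay between 2.69 and 16.6 CPM, within the knockout range. The high wildtype livers were not spread evenly over the library numbers. F and G had consecutive numbers, and so did L, M, N and O. L and M are also the closest pair of libraries named above, so these livers need not be independent results. Whether such runs bear on the Mt1 level was not tested. Among the knockouts, E alone was high, and G followed at 23.2 CPM.

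The fitted Mt1 level was lower in knockout than in wildtype livers on Western diet, with a log2 fold change of -2.32 (SE 0.68), but did not pass the threshold (adjusted p = 0.943, edgeR quasi-likelihood test with Benjamini-Hochberg adjustment, unadjusted p = 0.00168). The fold was 0.20, and 2 SE to either side gave 0.0775 to 0.515. By p, Mt1 stood at place 22 of 15296. Of the 6 genes, 0 passed the adjusted threshold of 0.05 in this comparison, against 0.00654% of all genes tested (1 gene, Cd163). At an unadjusted p below 0.05 there were 2 of 6, Mt1 and Mt2, against 5.08% of all genes. With those 4 libraries left out, 0 of 6 passed (0.00647% of all genes), and Mt1 was at -2.37 (SE 0.73, adjusted p = 0.744). Leaving out knockout E took Mt1 to -3.05, and leaving out wildtype G took it to -1.91. In whole liver, fewer cells of a type and less RNA per cell cannot be told apart.

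Mt2 followed Mt1 at a lower level. In wildtype Western diet livers, its low was 0.152, its median 1.30 and its high 64.4 CPM, and in knockout livers the low was 0.138, the median 0.743 and the high 25.3 CPM. The same wildtype livers were high, with 64.4 in L, 57.6 in G, 53.5 in M, 37.2 in F, 19.9 in N and 5.48 CPM in O, while the other 9 had at most 1.52 CPM. These are the same runs of consecutive library numbers as for Mt1, with the close pair L and M among them. Knockout E was again the high one, and the other 14 knockouts had at most 2.30 CPM. The fitted difference was -2.73 (SE 0.84, unadjusted p = 0.0026, adjusted p = 0.943, edgeR), or -2.74 without the 4 libraries, and it moved to -4.14 without knockout E. Many of these values rest on few reads, since the Mt2 count was 2 to 919 per wildtype and 2 to 319 per knockout library.

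On chow, the pattern recurred in a smaller group. Mt1 was 39.7, 8.93, 7.27, 9.15 and 96.9 CPM in wildtype A to E, and 4.72, 8.89, 10.0 and 5.40 CPM in knockout A to D. Wildtype A and E stood above all others, and the remaining 3 wildtype livers lay within the knockout range. Mt2 was 12.2, 0.308, 0.743, 0.422 and 10.97 CPM in wildtype A to E and 0.818, 1.43, 0.848 and 0.324 CPM in the knockouts. The same pair of wildtype livers was high for both metallothioneins. The fitted differences, knockout against wildtype, were -2.18 (SE 1.31) for Mt1 and -2.56 (SE 1.78) for Mt2, each with an adjusted p of 1.00 (edgeR). Without wildtype chow E, that of Mt1 was -1.18. Wildtype A is also 1 of the 4 libraries placed with the opposite diet, and without those 4 the values were -2.01 for Mt1 and -1.68 for Mt2.

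Between the diets, neither metallothionein passed the test. Mt1 was higher on Western diet than on chow by 1.08 (SE 0.97, adjusted p = 0.608) on the log2 scale in wildtype and by 0.93 (SE 1.12, adjusted p = 0.670) in knockout livers (edgeR). For Mt2, the values were 1.71 (SE 1.21, adjusted p = 0.490) and 1.54 (SE 1.62, adjusted p = 0.617). These fits rest on single livers: without wildtype chow E, the wildtype Mt1 value was 2.08, and without knockout Western diet E, the knockout values were 0.20 for Mt1 and 0.13 for Mt2. With the 4 doubtful libraries left out, Mt1 was at 1.24 (adjusted p = 0.533) and Mt2 at 2.42 (adjusted p = 0.306) in wildtype livers, and at 0.88 and 1.35 in knockout livers. The difference in diet effect between the genotypes was -0.15 (SE 1.42) for Mt1 and -0.17 (SE 2.07) for Mt2, or -0.36 and -1.07 without the 4.

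**Figure D1:**
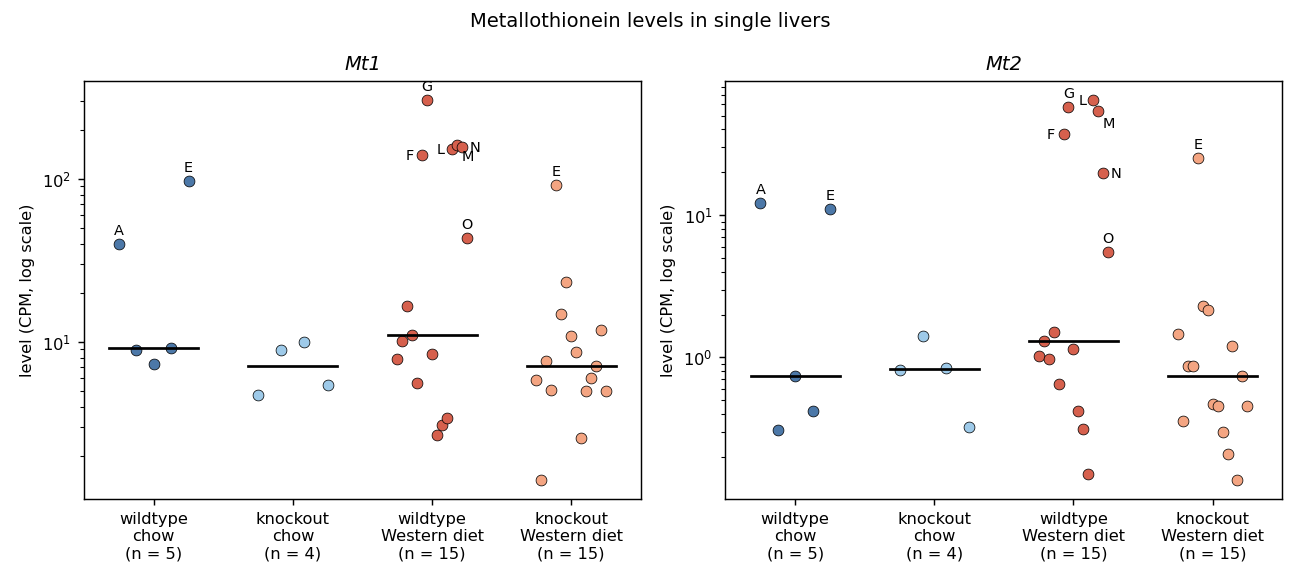
Level of Mt1 (left) and Mt2 (right) in each liver, in CPM on a log axis, by genotype and diet; each point is 1 library, letters name libraries described in the text, and lines are group medians. The medians lie between 7.10 and 11 CPM for Mt1, while F, G, L, M and N of wildtype Western diet and E of knockout Western diet stand far above the rest of their groups.

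The share of Mt2 among all metallothionein counts differed between livers that had high totals of both. It was 29.5% in wildtype Western diet L (exact binomial 95% interval 27.9 to 31.2%), 24.9% in M (23.3 to 26.5%), 20.9% in F (19.3 to 22.6%), 15.9% in G (15.0 to 16.9%) and 11.2% in N (9.97 to 12.6%). It was 21.7% in knockout Western diet E (19.6 to 23.9%), 23.6% in wildtype chow A (20.5 to 26.9%) and 10.2% in wildtype chow E (8.89 to 11.6%). The interval of N overlapped none of those of L, M, F and G, which is a difference beyond counting error between these libraries. How far the spread between mice or the assignment of shared reads enters it was not tested. In livers with little Mt1 the share was known poorly, as in knockout Western diet B, where 3 of 15 counts gave 20% (4.33 to 48.1%). The intervals cover counting error only, since the libraries carry no molecular identifiers and duplicate reads count again.

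**Figure D2:**
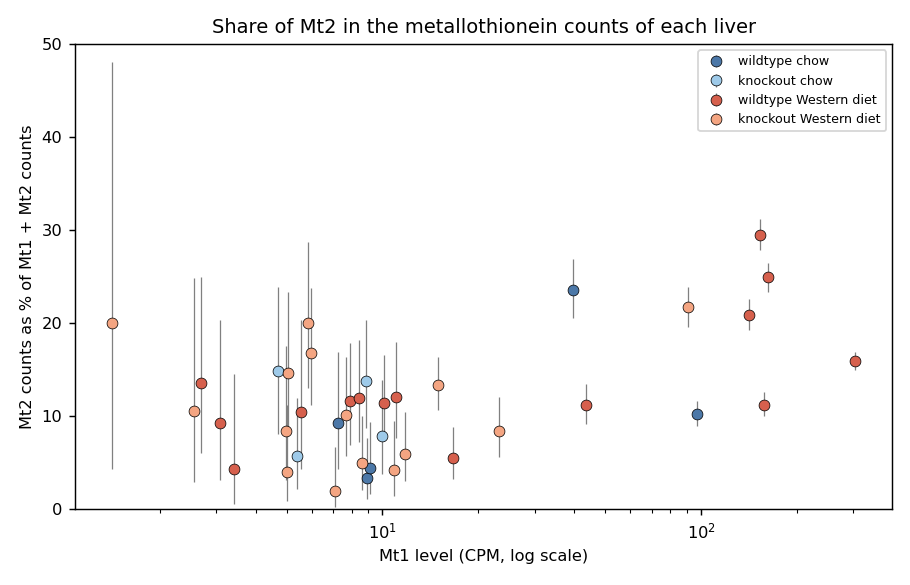
Mt2 counts as a percent of Mt1 plus Mt2 counts (vertical axis) against the Mt1 level in CPM (horizontal log axis), 1 point per liver, coloured by group, with exact binomial 95% intervals. Above 90 CPM of Mt1 the share ranges from 10.2% to 29.5% with narrow intervals, and below about 10 CPM the intervals are wide.

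Across livers, the metallothioneins moved together. In knockout Western diet livers (n = 15), the log2 CPM of Mt1 and Mt2 had a Pearson r of 0.809 (permutation p = 0.00112, adjusted p = 0.0168 over 30 pairs and groups) and a Spearman rho of 0.629 (permutation p = 0.014, adjusted p = 0.105). Without the 2 livers farthest from the median of Mt1, r was 0.565. In wildtype Western diet livers, the 5 livers above 140 CPM were separated from the other 10 by a gap, so the relation was computed over those 10: r was 0.926 (permutation p = 0.00059, adjusted p = 0.0168), rho was 0.830 (permutation p = 0.00496, adjusted p = 0.105), and r without the 2 farthest was 0.858. In both genotypes r passed after adjustment and rho did not. Shared reads between the copies were not tested as a part of this relation.

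The genes whose levels were most like those of Mt1, by Pearson r of deviations from the group means over 39 livers and 11834 genes, were Mt2 (0.931), Nfkb2 (0.857), Rhbdf2 (0.853), Relb (0.831) and Icam1 (0.828). Nfkb2 and Relb encode subunits of the transcription factor NF-kappaB, Rhbdf2 encodes a partner of the protease that releases TNF, and Icam1 encodes an adhesion molecule for leukocytes. For Mt2 they were Mt1, then Hp (0.864), Lcn2 (0.860), Lbp (0.859) and Saa3 (0.851), all of them acute phase genes. In knockout Western diet livers alone, r with Mt1 was 0.865 for Nfkb2 and 0.728 for Relb, and r with Mt2 was 0.655 for Hp and 0.691 for Lcn2. All these values include the few livers with high metallothioneins, E among the knockouts. The likeness without those livers was not computed, so it may rest on them. The same holds for the companions of the other members below. Ranked by Spearman rho, 4 of these 5 genes for Mt1 and 2 of 5 for Mt2 stayed among the 5 most alike.

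The acute phase list was high in the same livers. Its mean log2 CPM (24 genes) was 8.54 to 9.88 in the 5 wildtype Western diet livers with high Mt1 (F, G, L, M, N), against 6.67 to 7.72 in the other 10. It was 8.90 in knockout Western diet E, against 6.76 to 8.10 in the other 14, and 8.81 to 8.82 in wildtype chow A and E, against 6.76 to 7.10 in B, C and D. In each of these 3 groups, the livers with high Mt1 had the highest values of the list and did not overlap the rest. The livers were set apart after their Mt1 levels were seen. The 5 wildtype Western diet livers include the close pair L and M and fall in runs of consecutive library numbers, so they need not be independent, here and for the lists below. How many other genes separate the same livers was not counted, here and for the lists below. Sets as small as E alone, or A and E, can also separate without any link to Mt1. The genes of the IL-6 receptor and STAT3, the route by which IL-6 reaches hepatocyte genes, lay at 5.59 to 6.08 in the 5 wildtype Western diet livers, against 4.71 to 5.31 in the other 10. This mean covers the 9 tested genes of the list. Il6 itself was not tested and had 0 counts in 29 of 39 libraries. The glucocorticoid list lay at 6.43 to 6.94 against 5.63 to 6.48, and the NRF2 antioxidant list at 5.10 to 5.41 against 5.18 to 5.93, with overlap in both. In knockout E, the glucocorticoid list was at 6.26, within the 5.90 to 6.57 of the other 14.

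Markers of neutrophils and Kupffer cells were higher in the 5 wildtype Western diet livers with high Mt1. Of 10 neutrophil markers, 4 could be tested, and the 10 summed to 8.27 to 40.1 CPM in these 5 wildtype Western diet livers, against 1.65 to 6.16 CPM in the other 10. The sum ranged from 1.65 to 40.1 CPM over all wildtype and from 2.18 to 13.9 CPM over all knockout livers on Western diet. On chow, wildtype livers had 3.47 to 22.3 CPM and knockout livers 3.62 to 7.53 CPM. Ly6g, the defining surface marker of mouse neutrophils, had 0 counts in 33 of 39 libraries. The 8 Kupffer cell markers had a mean log2 CPM of 3.58 to 4.42 in the 5 livers, against 1.65 to 3.51 in the other 10. Knockout Western diet E shared the neutrophil part only, and narrowly: its sum of 13.9 CPM was just above 13.1 CPM, the highest of the other 14 knockouts. Its Kupffer value of 3.11 was below their median of 3.55 (2.26 to 4.46). Hepatocyte markers were at 11.6 to 12.04 in the 5 livers and 11.79 to 11.99 in the other 10. The lymphocyte, erythroid, bile duct, stellate cell and sinusoidal endothelial lists, by mean log2 CPM, also overlapped between the 5 livers and the other 10. What part these cells have in the metallothionein levels was not tested.

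**Figure D3:**
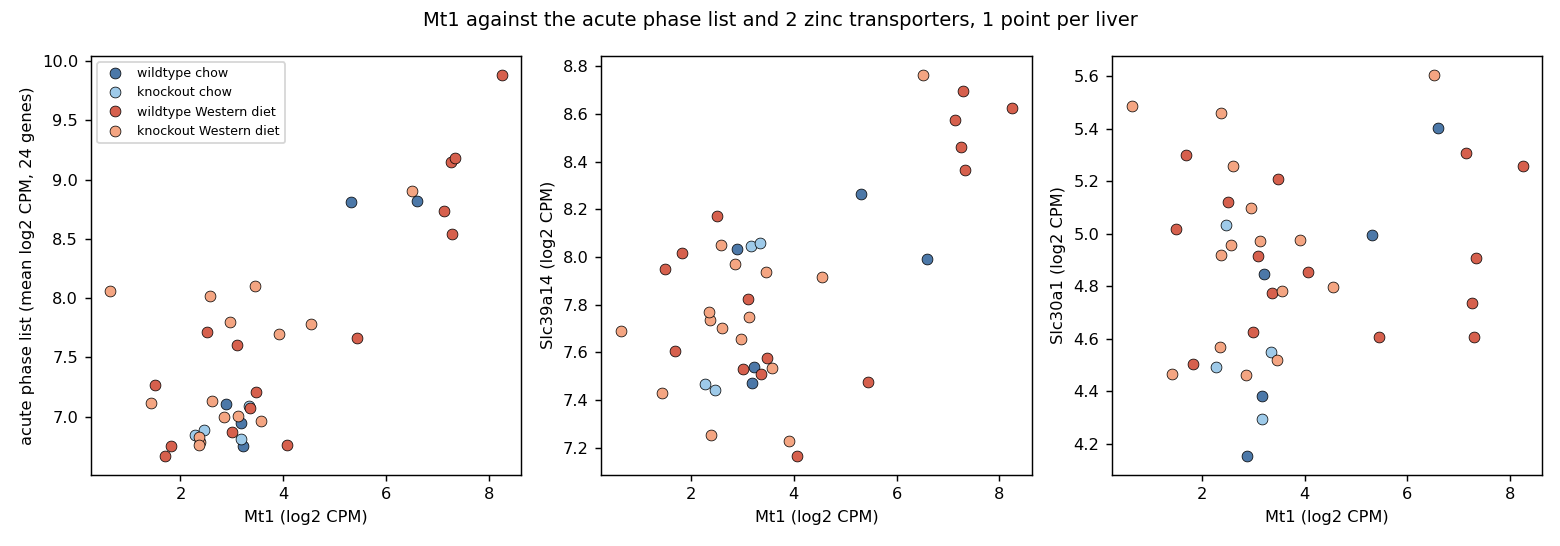
Mean log2 CPM of 24 acute phase genes (left), log2 CPM of Slc39a14 (middle) and of Slc30a1 (right) against log2 CPM of Mt1, 1 point per liver, coloured by group. The acute phase list lies above 8.5 in all 8 livers whose Mt1 was high. Slc39a14 is at 254 CPM in wildtype chow E and at 308 to 434.5 CPM in the rest of the 8, against at most 288 CPM in the other livers. Slc30a1 in the 8 runs from 24.2 to 48.5 CPM, while 10 of the other livers lie below 24.2 CPM.

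Mtf1, which carries the zinc signal to these promoters, was nearly constant. It was 27.6, 21.4, 29.5, 24.7 and 29.6 CPM in wildtype chow A to E and 23.3, 24.2, 25.9 and 22.8 CPM in knockout chow A to D. On Western diet it had a low of 20.8, a median of 26.4 and a high of 35.9 CPM in wildtype, and 21.7, 25.7 and 34.5 CPM in knockout livers. All 4 groups overlapped, and the highest values were those of wildtype Western diet G and knockout Western diet E, the livers with the most Mt1 in their groups. The genotype difference on Western diet was 0.02 (SE 0.07, adjusted p = 0.984) on the log2 scale, a fold of 1.02 with 0.921 to 1.12 at 2 SE. The other fitted differences were -0.14 (SE 0.13) for genotype on chow, -0.00519 (SE 0.10) for diet in wildtype and 0.16 (SE 0.11) for diet in knockout livers. Without the 4 libraries these were -0.13, 0.02 and 0.17. Its closest companions were Edem1 (0.785), Rbm15b (0.781), Ubfd1 (0.773), Ccdc117 (0.750) and Bag3 (0.747). Edem1 acts in the disposal of misfolded proteins of the endoplasmic reticulum, and Bag3 is a co-chaperone.

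Slc39a14, the importer, had the highest median of the 6 per length of exon and carried a weaker form of the metallothionein pattern. It was 308, 177, 262, 186 and 254 CPM in wildtype chow A to E and 177, 264, 266 and 174 CPM in knockout chow A to D. On Western diet the low, median and high were 144, 247 and above 395 CPM in wildtype and 150, 213 and 434.5 CPM in knockout livers. The 5 highest wildtype livers were again N, above the 395 CPM of G, then G, F (381), L (353) and M (330 CPM), with the other 10 at 144 to 288 CPM. The highest knockout was again E, with the other 14 at 150 to 265 CPM.

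The mean of Slc39a14 was 265 ± 89.9 CPM (SD, n = 15) in wildtype and 224 ± 67.4 CPM (SD, n = 15) in knockout Western diet livers. The fitted difference was -0.24 (SE 0.15, adjusted p = 0.943, edgeR), a fold of 0.846 with 0.689 to 1.04 at 2 SE, and without the 4 libraries it was -0.29 (adjusted p = 0.831). It was -0.11 (SE 0.27) for genotype on chow, 0.16 (SE 0.21) for diet in wildtype and 0.02 (SE 0.23) for diet in knockout livers, and none passed the test. The direction of the chow and knockout diet values turned without the 4 libraries, to 0.07 and -0.06. The companions of Slc39a14 were Steap4 (0.822), a metalloreductase, Saa4 (0.817), a serum amyloid, Ppp4r4 (0.815), Bcl3 (0.813), a regulator of NF-kappaB, and Gtpbp4-ps1 (0.812), a pseudogene whose reads may come from its parent gene.

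Within groups, the relation of Slc39a14 to Mt1 depended on which livers entered. Over the 15 knockout Western diet livers r was 0.588 (permutation p = 0.0325, adjusted p = 0.163) and rho 0.243, and r fell to 0.144 without the 2 farthest livers, so it rested on them. Over the 10 wildtype Western diet livers with the lower Mt1, r was -0.637 (permutation p = 0.0466, adjusted p = 0.175) and rho -0.770 (permutation p = 0.0126, adjusted p = 0.105). No pair other than Mt1 and Mt2 passed after adjustment over the 30.

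Slc30a1, a target of MTF1 in the textbook pathway, was high in some of the livers with high metallothioneins and not in others. It was 31.7, 20.7, 17.7, 28.6 and 42.2 CPM in wildtype chow A to E and 22.4, 19.5, 23.3 and 32.6 CPM in knockout chow A to D. The wildtype chow livers with high Mt1, E and A, had the most Slc30a1 of their group. On Western diet the low, median and high were 22.6, 29.9 and 39.5 CPM in wildtype and 21.9, 31.0 and 48.5 CPM in knockout livers. Of the 5 wildtype Western diet livers with high Mt1, F (39.5 CPM) and G (38.1) were near the top of their group, M (29.9) was at its median, and L (26.5) and N (24.2) were below it. Knockout E, with the most Mt1 of its group, also had the most Slc30a1. The correlation of Slc30a1 with Mt1 was -0.344 (permutation p = 0.334, adjusted p = 0.556) over the 10 wildtype livers left when the 5 with high Mt1 were set aside, and 0.166 (permutation p = 0.564, adjusted p = 0.757) over the 15 knockout livers. With Mt2, r in the knockout livers was 0.558 (permutation p = 0.0245, adjusted p = 0.163) and rho 0.525 (permutation p = 0.047, adjusted p = 0.235), and r was 0.186 without the 2 farthest livers.

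The largest difference of Slc30a1 was between the diets in knockout livers, with 24.4 ± 5.67 CPM on chow (SD, n = 4) and 31.9 ± 8.54 CPM on Western diet (SD, n = 15). The fitted value was 0.38 (SE 0.20, unadjusted p = 0.0584, adjusted p = 0.276, edgeR), a fold of 1.30 with 0.993 to 1.71 at 2 SE. Without the 4 libraries it was 0.61 (SE 0.22, adjusted p = 0.0511), just short of the threshold, as knockout chow D (32.6 CPM) is the highest chow knockout and knockout Western diet M (21.9 CPM) the lowest Western diet knockout. In wildtype livers the diet value was 0.11 (SE 0.18, adjusted p = 0.784), and the difference of the diet effects, 0.27 (SE 0.26), had an adjusted p of 1.00. The genotype differences were 0.06 (SE 0.12) on Western diet and -0.21 (SE 0.23) on chow. Its companions were Erap1 (0.827), Cgnl1 (0.822), Hbs1l (0.815), Tlk1 (0.810) and Mob1b (0.801).

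Slc30a10, the manganese exporter, showed no difference of mean but a wider spread in knockout livers on Western diet. It was 114, 86.8, 92.4, 101 and 72.1 CPM in wildtype chow A to E and 80.2, 112, 60.7 and 86.9 CPM in knockout chow A to D. On Western diet the means were 97.7 ± 9.75 CPM (SD, n = 15; low 78.4, median 96.9, high 117) in wildtype and 97.9 ± 26.2 CPM (SD, n = 15; low 56.5, median 100.1, high 137) in knockout livers. The knockout range enclosed the wildtype range, and the difference in spread was not tested. The fitted genotype difference was 0.00227 (SE 0.11, adjusted p = 0.999, edgeR), or 0.03 without the 4 libraries. The others were -0.13 (SE 0.19) for genotype on chow, 0.07 (SE 0.15) for diet in wildtype and 0.20 (SE 0.16) for diet in knockout livers, and -0.09, 0.15 and 0.27 without the 4. Knockout Western diet E was at 103 CPM, near the median of its group. The 5 wildtype livers with high Mt1 lay on both sides of their median, at 88.3 to 105 CPM, with L at place 3 and G at place 14 of 15. The gene most like it was Ppp1r3b (0.753), which directs a phosphatase to glycogen, with r = 0.924 in knockout and 0.199 in wildtype Western diet livers, followed by Tecpr2 (0.722), Cdcp1 (0.722), Dtx4 (0.692) and Pdhb (0.685).

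**Figure D4:**
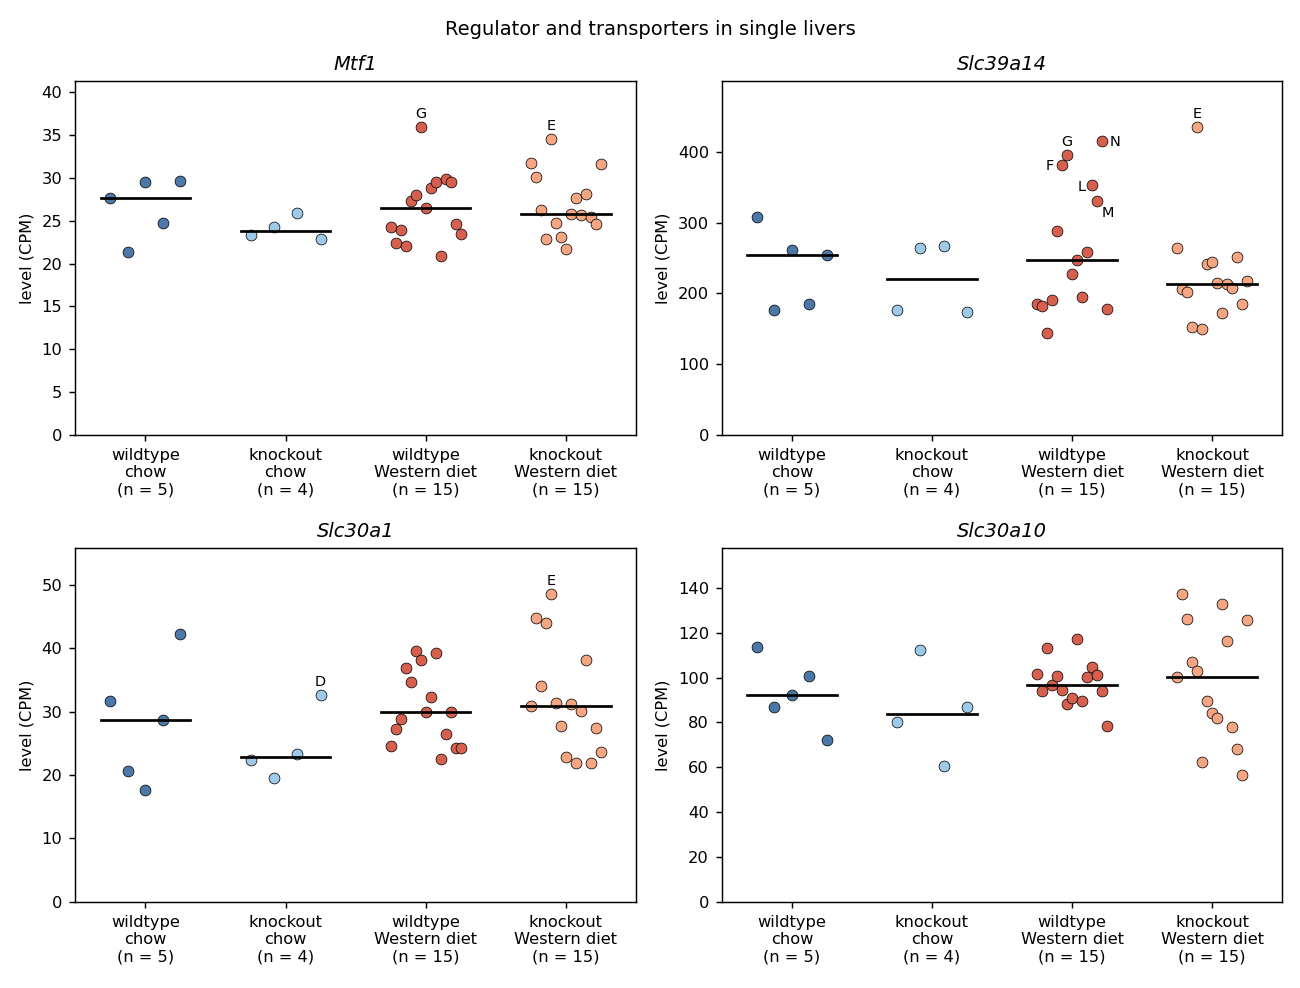
Level in CPM of Mtf1, Slc39a14, Slc30a1 and Slc30a10 in each liver, on linear axes from 0, by genotype and diet; points are single libraries, lines are medians and letters name livers described in the text. The wildtype Western diet livers F, G, L, M, N lead their group for Slc39a14 (330 CPM and more), and the 4 groups overlap for every gene.

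Levels of different genes were compared per kilobase of exon (union of GENCODE M21 exons, which is longer than the usual transcript, above all for Mt1). In wildtype chow livers the median was 24.1 CPM per kb for Slc39a14, 15.8 for Slc30a10, 7.34 for Mt1, 5.46 for Slc30a1, 3.10 for Mtf1 and 1.26 for Mt2. Slc39a14 (16.8 to 29.2) overlapped Slc30a10 (12.3 to 19.5), Mt1 (5.83 to 77.8) overlapped Slc39a14, Slc30a10 and Slc30a1 (3.37 to 8.05), and Slc30a1 began just above the top of Mtf1 (3.33). Mt2 (0.524 to 20.8) overlapped all the others. The order of the medians was the same in the other 3 groups but for Mt1 and Slc30a1, which changed places in knockout Western diet livers (5.70 and 5.90). By means, Mt1 came first in wildtype Western diet livers (55.1 CPM per kb against 25.1 for Slc39a14), which the 5 high livers set.

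For the 6 genes together, 0 of 6 passed in each of the 5 comparisons. The background was 0.00654% of all genes for genotype on chow, 1.39% for diet in wildtype livers, 0.00654% for diet in knockout livers and 0% for the difference of the diet effects. At an unadjusted p below 0.05 the members counted 0 of 6 in these 4, against 2.74%, 17.2%, 19.2% and 1.86% of all genes. Without the 4 libraries it was again 0 of 6 in each, against 0.00647% for genotype on chow, 8.66% for diet in wildtype, 17.2% for diet in knockout and 0% for the difference. The median log2 fold change of the 6 was -0.12 for genotype on Western diet and -0.17 on chow, and 0.14 and 0.29 for diet in wildtype and knockout livers, where the medians of all genes lay between -0.00323 and 0.0091. All 6 were lower in knockout than in wildtype livers on chow, and all 6 were higher on Western diet than on chow in knockout livers. Of all genes, 50.9% and 49.9% were on the positive side in these comparisons, which share the knockout chow livers. Without the 4 libraries both tallies were 5 of 6, since Slc39a14 turned.

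**Figure D5:**
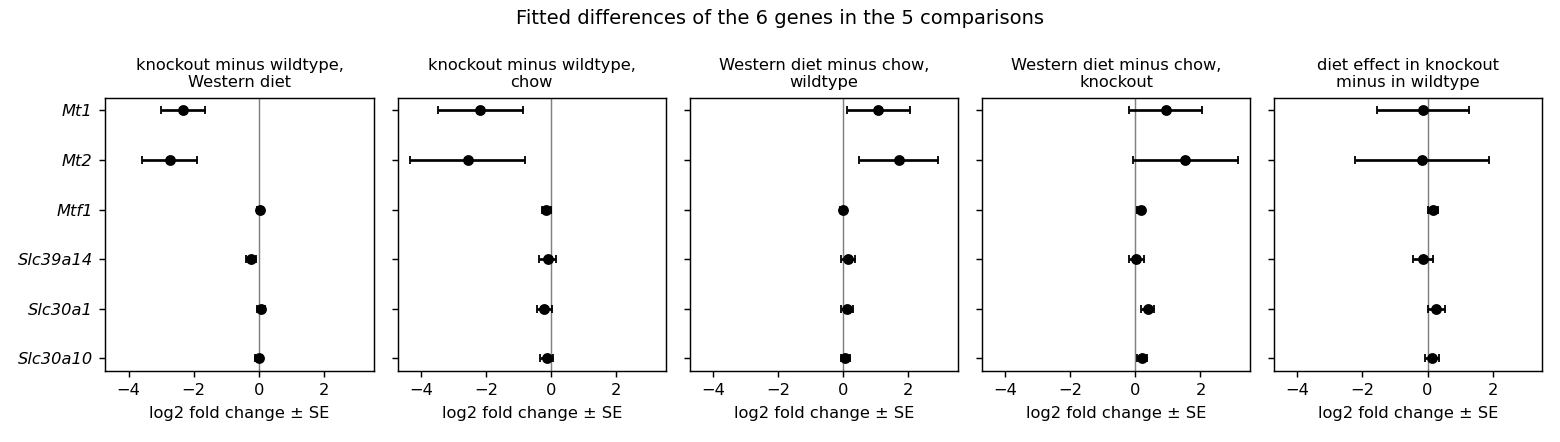
Fitted log2 fold change ± SE (edgeR, 39 libraries in 1 fit) of each of the 6 genes, with 1 panel per comparison. In the 4 genotype and diet panels Mt1 and Mt2 lie farthest from 0, at -2.32 and -2.73 for genotype on Western diet, their error bars are the longest in all 5 panels, and the other 4 genes lie within 0.4 of 0 in all 5 panels.

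The remaining zinc genes were taken as whole families. Mt3, the metallothionein of brain, had 1 count in 1 wildtype Western diet library and 0 in the other 38, and Mt4, that of stratified epithelia, had 0 in all 39. Of 13 other ZIP genes 12 were tested and of 8 other ZnT genes 6, and 0 passed in any of the 5 comparisons. For genotype on Western diet the smallest unadjusted p-values were those of Slc39a4, the importer of intestinal zinc (-0.29, SE 0.15), Slc39a10 (0.21, SE 0.11), Slc30a3 (-0.61, SE 0.32) and Slc30a7 (0.06, SE 0.07). On chow they were Slc39a1 (-0.23), Slc39a4 (-0.31), Slc30a9 (0.19) and Slc30a5 (-0.28).

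The diet values of these families changed with the 4 libraries. With all 39 libraries, Slc39a11 (ZIP11) was higher on Western diet by 0.48 in wildtype (SE 0.14, adjusted p = 0.0702, edgeR; means 21.7 and 30.4 CPM) and by 0.51 in knockout livers (SE 0.15, adjusted p = 0.121). Slc30a9 was higher by 0.29 in wildtype livers (SE 0.09, adjusted p = 0.0683), Slc39a7, which releases zinc from the endoplasmic reticulum, by 0.38 in wildtype and Slc39a9 by 0.40 in knockout livers (adjusted p = 0.198 and 0.133). Slc30a4 was at 0.19 in wildtype and 0.26 in knockout livers, and Slc30a5 at 0.43 in knockout livers. Without the 4 libraries, 1 of 12 ZIP genes passed as higher in wildtype livers, against 4.26% of all genes. It was Slc39a11, at 22.8 ± 1.80 CPM on chow (SD, n = 4) and 31.0 ± 4.56 CPM on Western diet (SD, n = 14). In knockout livers and again without the 4, 5 of 12 passed as higher, against 9.69% of all genes. The 4 were picked by diet genes, which favours diet calls, and 3 knockout chow livers remained.

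Those 5 were Slc39a11 (0.74, adjusted p = 0.00179), Slc39a9 (0.61, adjusted p = 0.00161), Slc39a7 (0.60, adjusted p = 0.0204), Slc39a10 (0.62, adjusted p = 0.0252) and Slc39a1 (0.45, adjusted p = 0.0327, edgeR). Slc39a1 and Slc39a10 bring zinc in at the cell surface. Of 6 ZnT genes, Slc30a9 passed as higher in wildtype (0.36, adjusted p = 0.00234) and 0 passed in knockout livers, and 0 of either family passed as lower, against 4.40% and 7.50% of all genes. A difference of the diet effect between the genotypes passed for 0 of the 18 genes with and without the 4 libraries.

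Copper handling, the other metal of metallothioneins, gave 0 of 10 in every comparison with all libraries, where at most 1.39% of all genes passed. The smallest p-values were those of the export ATPase Atp7a (0.38) and the mitochondrial copper chaperone Cox17 (0.15) for genotype on Western diet, and of the plasma ferroxidase Cp (-0.46) and Atp7a (0.44) on chow. Cox17 was at -0.45 for diet in wildtype livers (SE 0.13, adjusted p = 0.0579), beside Ccs, the copper chaperone of superoxide dismutase, at -0.20. In knockout livers Ccs was at -0.31 and Commd1 at -0.16. Once the 4 libraries were left out, Cox17 (-0.51, adjusted p = 0.0120) and Ccs (-0.33, adjusted p = 0.0200) fell in wildtype livers and Ccs (-0.43, adjusted p = 0.00458) fell in knockout livers. These were 2 of 10 genes in wildtype and 1 of 10 in knockout livers, against 4.4% and 7.5% of all genes.

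The acute phase, IL-6 and STAT3, glucocorticoid and NRF2 lists had 0 genes past the threshold in any comparison with all libraries. At most 1.39% of all genes passed in a comparison. For genotype on Western diet 22 of 24 acute phase genes were on the negative side, with a median of -0.43, led by Saa3 (-1.64, SE 0.55) and Orm2 (-1.78, SE 0.69). Of 9 genes of the IL-6 receptor and STAT3 8 were negative, with a median of -0.27, led by the transcription factors Cebpb (-0.53, SE 0.19) and Cebpd (-0.51, SE 0.23). The glucocorticoid list had 13 of 16 negative with a median of -0.10, led by Sgk1 (-0.36) and Igfbp1 (-0.74). The NRF2 list had 8 of 9 positive with a median of 0.10, led by Gclc (0.16) and Gclm (0.10), subunits of the enzyme that begins glutathione synthesis. The median of all genes was 0.0091, and 53.5% of all genes were positive. Genes of a list can rise and fall together in the same livers, so these tallies do not count independent results.

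On chow, 22 of 24 acute phase genes were again negative, with a median of -0.89, led by Lcn2 (-4.09, SE 1.73) and Orm2 (-3.25, SE 1.41). Of the IL-6 and STAT3 genes, 8 of 9 were negative, led by Il6ra (-0.84) and Osmr (-0.55). Of all genes, 50.9% were positive in this comparison. Sgk1 (-0.60) and Tsc22d3 (-0.68) led the glucocorticoid list, and Hmox1 (-0.56) and Nfe2l2 (0.30) the NRF2 list. Between the diets, Hamp, the gene of the iron hormone hepcidin, was at -1.37 (adjusted p = 0.120) in wildtype and -1.96 (adjusted p = 0.0966) in knockout livers. With the 4 left out, Hamp fell by 1.77 in wildtype and by 2.62 on the log2 scale in knockout livers, and Orm3 rose in wildtype and Crp in knockout livers, so that 2 of 24 acute phase genes passed in each genotype, against 8.66% of all genes in wildtype and 17.2% in knockout livers. Of 9 NRF2 genes, Gstm1 (-1.06) fell in wildtype (4.4% of all genes) and Srxn1 (0.63) rose in knockout livers (9.69% of all genes). Of 16 glucocorticoid genes, Klf9 (-0.51) fell (7.5% of all genes) and Cdkn1a (1.69) rose (9.69%) in knockout livers.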

How the data were processed

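Liver RNA of 39 mice was measured by paired-end sequencing of NEBNext Ultra libraries on a NovaSeq, per the labels. Raw gene counts in 1 table were deposited, which the authors made with STAR 2.7.8a, featureCounts 2.0, FastQC, MultiQC and the assembly GRCm39, per the submitters' processing notes. The annotation release, strand setting and treatment of multiply aligned reads are not given in the sources used here, so reads of overlapping or antisense genes and of the Mt1 and Mt2 copies may be shared. Symbols came from GENCODE M21 and matched 52083 of 55416 identifiers (99.4% of counts).

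Low genes were removed with filterByExpr (edgeR 4.0.16; minimum count 10, minimum total 15), scaled by TMM and fitted for all 39 libraries in 1 robust quasi-likelihood model (R 4.3.3), with Benjamini-Hochberg adjustment over 15296 genes and a threshold of 0.05. The method was tested on simulated data. CPM are counts scaled to the TMM-adjusted library total, from the cpm function, and log2 CPM add a prior count of 2. Correlations were computed with scipy 1.17.1 and numpy 2.4.6 (2-sided permutation tests, 100000 resamples), and where log2 CPM of a gene left a gap of over 1.5 with at least 2 libraries on each side, over the larger side only, a rule chosen after values were seen. Likeness is Pearson r of deviations from group means. The place of a library between the diets is the mean log2 CPM of 532 genes called between the diets in the other 35 libraries. Figures were drawn with matplotlib 3.10.9.

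The members and gene lists were chosen with earlier results of these data known, and so were the 4 libraries and the pair L and M. Named are the 6 members, Cd163, from each list the genes past the threshold or else the 2 with the smallest p, and the 5 genes most like each member. Genes past the threshold only without the 4 libraries, Il6, the neutrophil marker Ly6g and the library letters and numbers were picked after their values were seen. The fits were repeated in DESeq2 1.42.0, in limma 3.58.1 (voom, quality weights), with RLE in place of TMM, unfiltered, on the compared groups alone, with letters as blocks, with library numbers as covariate, without each library, without the 4, and with L and M summed. The labels do not say that letters pair mice. Same-letter Western diet libraries had a mean correlation of -0.0104, from -0.325 to 0.376, so no pairing was used.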

Additional observations from a re-analysis of the deposited data

How the results depend on the processing

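Across 48 alternatives (39 of them leaving out 1 library), 1434 fitted values of the 6 genes were recomputed. Of these, 1369 kept their direction, 65 turned and 0 passed the threshold. Mt1 for genotype on Western diet stayed between -3.05 and -1.27 and Mt2 between -4.14 and -1.66, the weakest values both from limma voom. Depth limits Mt2, with as few as 2 counts, and the chow groups hold 4 and 5 mice.

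The number of genes passing for genotype on Western diet rose from 1 to 4 with DESeq2 and 3 with no filter, and on chow it was 0 with limma voom. For diet in wildtype mice (212) it was 518 with DESeq2, 1020 with voom, 44 with no filter, 50 with the replicate block, 0 with the library number, 1339 without the 4 libraries, 116 with L and M summed, and 0 (without wildtype chow B) to 556 (without wildtype chow A) with 1 library left out. For diet in knockout mice (1) it was 226 with DESeq2, 804 with voom, 2657 without the 4 libraries, 0 with no filter, the block, the library number, only the groups compared or L and M summed, and 0 to 1408 (without knockout chow D) with 1 library left out.

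Values that turned were these. Slc30a10 for genotype on Western diet was -0.00993 with voom, -0.00321 with no filter, -0.0416 with the block and -0.129 with the library number, which also gave -0.0698 for Slc30a1. With the block, diet in knockout livers gave -0.762 for Mt1, -0.836 for Mt2 and -0.254 for Slc39a14, diet in wildtype livers -0.0102 for Slc39a14, and genotype on chow 0.0353 for Slc39a14. With voom, Mt2 for diet in knockout livers was -0.0201, Mtf1 for diet in wildtype livers 0.0035 and the Mt1 interaction 0.138. Without the 4 libraries, Slc39a14 was 0.0736 on chow and -0.0606 for diet in knockout livers, Mtf1 0.0198 for diet in wildtype livers, and r of Mtf1 with Slc30a10 in wildtype Western diet livers 0.0137 (-0.00527 with all). L and M summed gave 0.116 for the Mt2 interaction. With 1 library left out the ranges were -1.15 to 0.263 (Mt1) and -1.58 to 0.196 (Mt2) for the interaction, -0.0747 to 0.0376 (Mtf1), -0.0119 to 0.308 (Slc30a1) and -0.01 to 0.151 (Slc30a10) for diet in wildtype livers, -0.00505 to 0.0613 (Mtf1) and -0.041 to 0.0452 (Slc30a10) for genotype on Western diet, -0.0766 to 0.134 (Slc39a14) for diet in knockout livers and -0.223 to 0.0038 (Slc39a14) for genotype on chow. Of the 5 genes most like each member, Spearman kept 2 for Mt2, Slc39a14 and Slc30a1 and 3 for Slc30a10. The causes were not tested.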
